A study of Mus musculus with 7 samples.

Results

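An estrogen response element (ERE) is the short palindrome that estrogen receptors read on DNA. The mm10 genome (GRCm38, chromosomes 1 to 19 and X) held 2357 perfect copies of its consensus, and 1934 of them lay wholly outside the repeat sequence that the RefSeq copy of the genome writes in lower case. These 1934 elements, chosen by sequence alone and without any ChIP value, are described here. The consensus has a half-site of 5 bases, a spacer of 3 bases of any kind, and the same half-site on the opposite strand:

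Consensus element: GGTCANNNTGACC

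ERβ, encoded by Esr2, is the main estrogen receptor of granulosa cells, the somatic cells that surround the oocyte and make estradiol in the growing follicle. It binds as a dimer, and each receptor molecule contacts 1 half-site through its zinc fingers. In much of the genome the DNA is wrapped in nucleosomes, so that a good sequence is not by itself an occupied one. The base before the 5 consensus letters is often A, which gives the 6-base half-site AGGTCA shared by many nuclear receptors. LRH-1 and SF-1 (Nr5a2 and Nr5a1) bind a related single half-site, and GATA, FOXO and AP-1 factors also act in follicle cells.

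The libraries came from whole ovaries of female C57BL/6J mice that express their endogenous ERβ. For each ChIP replicate the ovaries of several mice, from a few weeks of age to adulthood, were pooled, and chromatin was precipitated with the ERβ antibody PPZ0506. The 3 ERβ ChIP replicates were compared with 2 inputs of the same tissue. ERβ knockout ChIP was not analysed here, so antibody signal that does not come from ERβ cannot be told apart from ERβ signal. A whole ovary mixes granulosa, theca, stromal, luteal, vascular and immune cells, and binding in few cells cannot be told apart from weak binding in many.

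The 33 bases around the strongest elements are shown first because they carry the main contrast, which is that the same letters were strongly bound at one place and unbound at another. They are written 5′ to 3′ on the plus strand of GRCm38, and capitals mark the half-sites. The element nearest to Rybp lay at chr6:100060061-100060073, that nearest to Tmem266 at chr9:55361034-55361046, that before Map2k1 at chr9:64253929-64253941, that nearest to Csmd1 at chr8:17565090-17565102 and that in Rbfox1 at chr16:6168278-6168290:

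Rybp, bound: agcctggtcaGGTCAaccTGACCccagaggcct
Tmem266, bound: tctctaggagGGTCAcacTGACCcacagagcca
Map2k1, bound: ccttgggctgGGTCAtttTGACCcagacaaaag
Csmd1, bound: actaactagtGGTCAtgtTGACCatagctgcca
Rbfox1, bound: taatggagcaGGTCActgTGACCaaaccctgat

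For each of these, the unbound element with the same 15 bases (the element and the base on either side, read on either strand) and the lowest fold is given next. For the Rybp element it lay in a UTR nearest to Rpp25l and only its values are given later. The others lay at chr15:20422314-20422326 in intergenic sequence, chr5:92688166-92688178 in intron 1 of Shroom3, chr4:154130027-154130039 in intron 1 of Trp73 and chr7:28101472-28101484 in a coding exon of Fcgbp:

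Acot10, unbound: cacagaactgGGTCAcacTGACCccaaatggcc
Shroom3, unbound: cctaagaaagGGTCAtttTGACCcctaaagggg
Trp73, unbound: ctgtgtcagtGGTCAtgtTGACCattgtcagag
Fcgbp, unbound: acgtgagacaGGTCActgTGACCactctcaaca

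Signal is the normalised ChIP-seq coverage per base, and each value is its mean over the 200 bp centred on an element. The fold is that signal in a ChIP replicate over the mean of the inputs, with the inputs held to at least their genome mean. An element was measurable where the inputs over 1 kb reached 0.5 times their genome mean, which 1904 of the 1934 did. None of the 30 others passed 4-fold. An element was called bound when the fold was over 4 in at least 2 of 3 ChIP replicates. It was called unbound when the fold was under 2 in all 3, and the rest were placed between.

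Most perfect elements carried little ERβ signal. Of the 1904 measurable elements, 261 were bound (13.7%, Wilson 95% interval 12.2 to 15.3), 480 lay between and 1163 were unbound (61.1%). These intervals cover counting over elements only. Over the genome, 0.0481% of 200-bp tiles with measurable input passed the same rule. The median fold over all measurable elements was 1.18, and the upper quartile was 2.11. The range ran from 0.352 to 50.02, and 122 bound elements had a mean fold over 8.

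**Figure D1:**
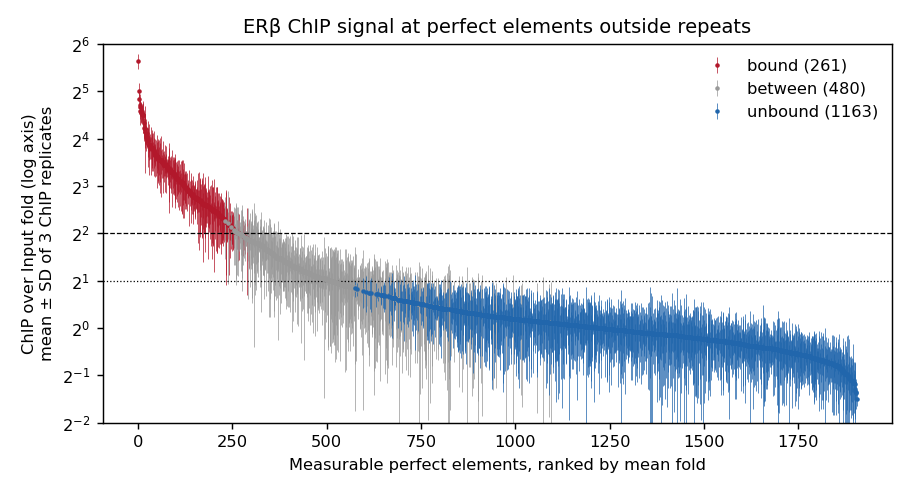
Measurable perfect elements outside repeats, ranked on the x axis by mean fold. The y axis (log scale) gives the ChIP over input fold as the mean ± SD of 3 ChIP replicates, and the lines mark folds of 4 (dashed) and 2 (dotted). Some lower error bars end at the edge of the plot. The 261 bound elements form a short steep head, and the 1163 unbound ones a long tail around 1.

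The mean over the measurable elements, bound ones included, stood above the genome in every ChIP replicate. Relative to the genome mean, the mean log2(signal + 0.5) at the measurable elements was 0.53, 0.61 and 0.66 higher in ChIP replicates 1, 2 and 3, and 0.14 and 0.11 higher in Inputs 1 and 2. ChIP exceeded input by 0.48 on this scale, with no overlap between the groups. The exact permutation test over libraries gave a one-sided p of 0.1, which is the smallest that 3 against 2 libraries can give, and the same holds for each test of this kind below. The track names of ChIP replicate 1 and Input 1 lack a number that the other 3 libraries carry. Within these groups of libraries, taken as batches after seeing the data, the difference was 0.39 and 0.53.

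Fitted with limma over all tiles of the genome together with the elements, 119 of 1917 tested elements were higher in ChIP than in input at an adjusted p under 0.05, and 0 were lower. At an unadjusted p under 0.05, 514 were higher and 28 were lower, while over the 12125798 tiles tested 172073 were higher and 380453 lower. Of all windows tested, 0.0168% were called higher. At the adjusted threshold 1901 tiles were higher in ChIP and 996 lower. All 119 elements called higher were among the bound elements. Their median log2 fold change was 2.71, against 0.15 over all tested elements and -0.01 over all tiles. The count rested strongly on the scale, at 236 with a pseudocount of 0.1, 8 with a pseudocount of 1 and 3 with no filter on low signal. It was 46 without ChIP replicate 2, 54 without Input 1 and 59 without Input 2.

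The ChIP replicates ranked the bound elements alike. Spearman's rho between pairs of ChIP replicates was 0.840 to 0.890 over the bound elements, which were chosen on the same values, and 0.686 to 0.704 over all measurable elements. Between ChIP and input it was 0.285 to 0.511 over all of them. These are descriptions over points that share libraries. At elements over 4-fold in a given pair of replicates, the median fold in the replicate left out was 6.68, 9.35 and 9.84 for ChIP replicates 1, 2 and 3. In the left-out replicate, 82.4%, 96.7% and 95.7% of those elements were over 4-fold. ChIP replicate 1 thus gave the lowest folds, and 225 elements passed 4-fold in it, against 281 and 302 in the others.

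Signal was centred on the palindrome at bound elements. Since the call itself used the central 200 bp, the contrast with unbound elements is partly fixed by it and is given as a description. The strongest 20-bp bin within 400 bp had a median distance of 10 bp from the centre of a bound element, and for 96.6% of the bound elements it lay within 50 bp. At unbound elements the median was 230.0 bp and the share within 50 bp 9.54%. Within 50 bp of the centre, mean ChIP signal at bound elements was 5.09, 6.61 and 7.11 in ChIP replicates 1, 2 and 3, and input was 0.647 and 0.540. From 1500 to 2000 bp away ChIP had fallen to between 0.410 and 0.449, and input was 0.511 and 0.474.

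**Figure D2:**
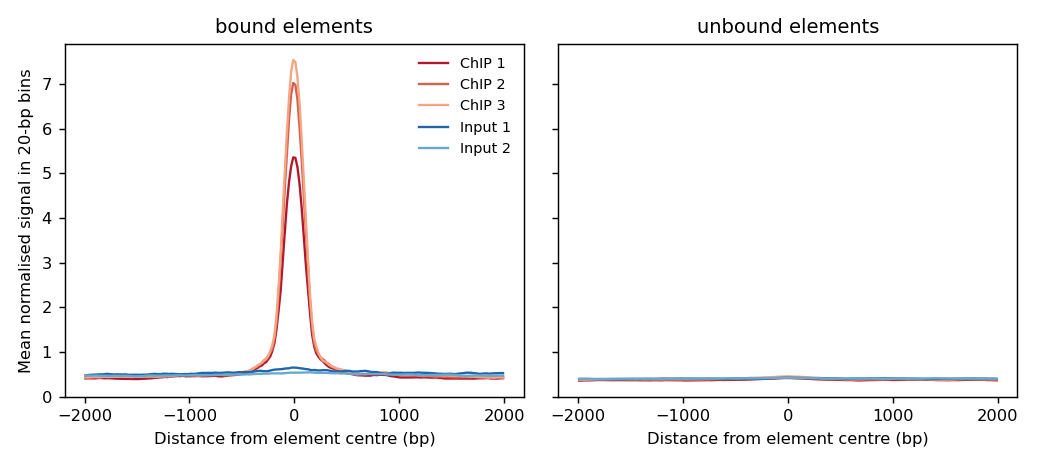
Mean normalised signal in 20-bp bins (y axis) by distance from the element centre (x axis, bp) for each of the 5 libraries, at bound elements on the left and unbound elements on the right. All 3 ChIP replicates peak at the centre of bound elements, at several times the inputs, while all 5 libraries stay under 1 across unbound elements.

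The strongest element lay in intergenic sequence 227 kb from the nearest protein-coding transcript start, that of Rybp, a Polycomb partner protein. The 3 ChIP replicates gave signal of 25.1, 30.8 and 30.3 there, while Inputs 1 and 2 gave 0.711 and 0.440, for a fold of 50.02 ± 5.49 (SD, n = 3) and a limma adjusted p of 1.9e-12. Next came an element at chr5:96827361-96827373 in intron 7 of Anxa3, which encodes an annexin, with a fold of 31.96 ± 4.07. It also lay 0.563 kb before the start of a transcript of that gene that is not annotated as protein-coding. Both stood far above the highest input value at either place.

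Of the other strong elements, those nearest to Max, Chst11, Tmem266, Map2k1, Flvcr2, Csmd1, Trim2, Rbfox1, Ssr3 and Mc2r had mean folds from 28.5 down to 22.8. At the Map2k1 element the signal was 14.6, 17.1 and 20.7 in ChIP and 0.732 and 0.730 in input, with a fold of 23.9 ± 4.19. Map2k1 encodes the kinase MEK1, and the element sits 0.304 kb before its transcript start. The 12 strongest included 5 intergenic elements, 4 in introns, 2 in promoters and 1 at a transcript end. The nearest gene is a statement of position only.

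The call turned on small differences near the threshold. Ranked by the second highest of their 3 folds, the bound element closest to it, at chr12:54085777-54085789 near Egln3, had a fold of 4.03 ± 0.863, and the closest element that was not called, at chr10:27629857-27629869 near Lama2, had 3.14 ± 1.41, with ChIP signal of 2.27, 2.28 and 0.870.

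Identical 15-base sequences occurred at both bound and unbound elements. The 1904 elements used 386 different 15-base sequences, of which 300 occurred more than once. Among the 138 sequences with a bound element, 116 also occurred at an unbound one. With 61.1% of measurable elements unbound and most sequences repeated, such sharing is common by number alone. Of the 261 bound elements, 252 shared their 15 bases with another measurable element and 227 with an unbound one. Not every strong element had an unbound copy. Among the 12 strongest, the 15 bases of the Chst11 element were bound at 3 of 3 elements. Those of the Trim2 element were bound at 5 of 8 and unbound at 0. In contrast, the 15 bases of the Rbfox1 element occurred at 21 elements, 2 of them bound and 15 unbound. Its signal was 11.003, 11.9 and 9.26 in ChIP, and at the Fcgbp copy it was 0.190, 0.230 and 0.310. At the Rpp25l copy of the Rybp sequence ChIP signal was 0.687, 0.565 and 0.814, close to the inputs at 0.685 and 0.664. The Shroom3 copy of the Map2k1 sequence had 0.290, 0.242 and 0.260 in ChIP, below both its inputs at 0.688 and 0.810.

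In these shared sequences the surroundings differed. Bound members had a median GC content of 48.0% in 200 bp and unbound members 45.0%. Input signal over 1 kb, which was not in the fold but overlaps its window, was 1.46 times the genome mean at bound and 1.07 times at unbound members. Over all elements the medians were 1.47 and 1.08 times. Input thus moved with the call, and its part in the result was not tested.

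Within the 15 bases, binding varied with the base directly before a half-site. The element has A there on both strands when it reads as follows:

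Element with both 6-base half-sites: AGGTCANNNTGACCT

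Of 316 elements with A on both strands 84 were bound (26.6%, interval 22.0 to 31.7), of 812 with A on 1 strand 121 were (14.9%, 12.6 to 17.5), and of 776 with A on neither 56 were (7.22%, 5.60 to 9.26). In single ChIP replicates the share over 4-fold was 27.0% ± 4.25 (SD, n = 3), 15.4% ± 1.86 and 7.60% ± 1.49 in the same order. The limma test called 38, 56 and 25 of them higher in ChIP, which is 12.03%, 6.90% and 3.22% of those tested.

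Mean log2(signal + 0.5) was higher at elements with A on both strands than on neither by 0.63, 0.69 and 0.68 in ChIP replicates 1, 2 and 3. In Inputs 1 and 2 the same difference was 0.09 and 0.02. The excess of ChIP over input was 0.61 (exact permutation one-sided p = 0.1), and 0.54 and 0.66 within the track-name batches. The ChIP values lay close together and far from both inputs.

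Among all bases at this position, T stood lowest. Counted over half-sites, of which each element has a pair, 20.01% of those preceded by A, 16.3% by G, 11.7% by C and 4.98% by T belonged to bound elements. With T on both strands only 2 of 245 elements were bound (0.816%, interval 0.224 to 2.93), with T on 1 strand 59 of 776 (7.60%), and with T on neither 200 of 883 (22.7%, 20.01 to 25.5). This grouping by T was made after the values were seen and is given with no test. One of the 2 exceptions was the Csmd1 element printed above, with signal of 10.6, 13.5 and 11.4 in ChIP and 0.536 and 0.480 in input. T took 12.1% of these positions at bound and 43.6% at unbound elements. Over the next bases out, to position 10, the widest gap was at position 8, where A took 19.5% at bound and 29.7% at unbound elements.

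GC content moved with binding as well. From the lowest to the highest quartile of GC in 200 bp, 5.94%, 12.3%, 17.4% and 19.9% of elements were bound. The quartile at 17.4% holds all 18 elements of the immunoglobulin gene segments described below, and without them its share was 14.1% (63 of 448). Within each quartile the order by A was kept. In the lowest quartile (24.5 to 41.0% GC) the share was 1.63%, 6.69% and 13.4% for A on 0, 1 and 2 strands, and in the highest (50.5 to 76.5%) it was 13.5%, 22.9% and 32.3%. The ChIP excess for A on both strands was 0.38, 0.62, 0.77 and 0.71 from the lowest to the highest quartile. Of the 18 immunoglobulin elements 16 had A on both strands, and they are included in the 0.77.

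**Figure D3:**
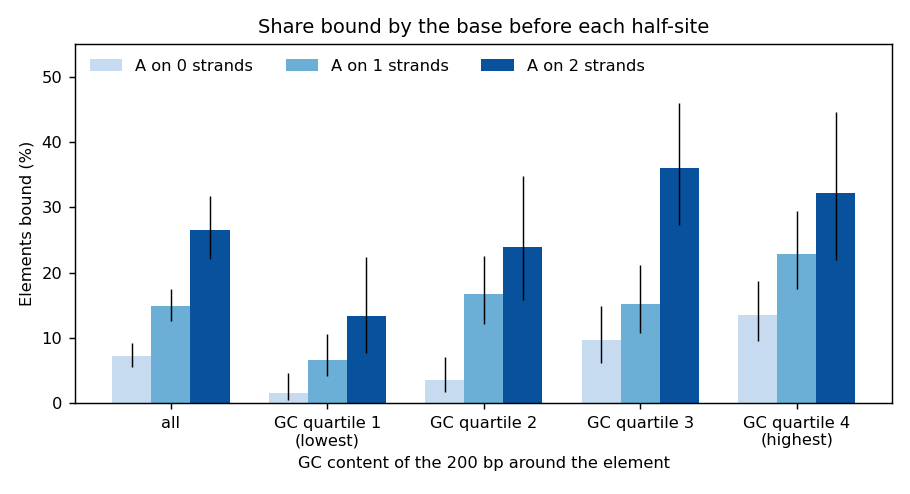
Share of elements bound (y axis, %) by the number of strands with A before the half-site, for all measurable elements and within quartiles of GC content in 200 bp (x axis). Bars are shares with Wilson 95% intervals, and in every quartile the share rises from 0 to 2 strands, for example from 1.63% to 13.4% in the lowest. Quartile 3 includes the 18 bound elements of immunoglobulin gene segments, 16 of them with A on both strands.

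The spacer letters also varied with binding. With 0, 1, 2 and 3 G or C in the spacer, 5.38%, 10.96%, 15.3% and 21.4% of elements were bound. Among the spacers of at least 20 elements, read on either strand, CCG was highest at 34.5% (10 of 29), followed by CCA at 29.7% (30 of 101) and GCC at 26.0% (25 of 96). TAA was lowest at 2.94% (1 of 34), and AAA had 6.19% (6 of 97). Of the 30 bound elements with the CCA spacer 17 lay in immunoglobulin gene segments, and without them the share was 15.5%. These classes are given as a description.

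A cytosine before the half-site makes a CpG, the dinucleotide that carries DNA methylation. Elements with a CpG in the 15 bases were bound in 15.5% of cases (37 of 238), and those without in 13.4%. The ChIP excess was 0.02 (exact permutation one-sided p = 0.4), which the spread between libraries exceeds. With a CpG in the spacer, 16 of 66 elements were bound (24.2%, interval 15.5 to 35.8), against 13.3% of the rest, and the excess was 0.39 for this class, which was added once the data had been seen.

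All 18 elements in immunoglobulin kappa variable segments were bound. They lay in the Igkv4 family on chromosome 6, over 0.691 Mb, in segments that encode the variable part of antibody light chains. This family was noticed after its values were seen, so it carries no test. Sequences of 5 members annotated as coding exons show how alike they were, at chr6:69043198-69043210, chr6:69185052-69185064, chr6:69268104-69268116, chr6:69305054-69305066 and chr6:69681632-69681644, on the plus strand of GRCm38 with half-sites in capitals:

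Igkv4-79: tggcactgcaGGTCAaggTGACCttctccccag
Igkv4-74: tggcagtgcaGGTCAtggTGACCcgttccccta
Igkv4-70: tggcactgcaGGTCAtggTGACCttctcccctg
Igkv4-68: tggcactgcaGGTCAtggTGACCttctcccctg
Igkv4-51: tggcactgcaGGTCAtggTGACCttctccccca

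Of the 18, 16 had A on both strands and 17 had the CCA spacer. Their mean folds ran from 4.38 to 22.5 with a median of 10.95, 17 were over 4-fold in all 3 ChIP replicates, and limma called 13 of them. Igkv4-68 was highest, with signal of 6.24, 8.70 and 9.94 in ChIP and 0.281 and 0.260 in input. Igkv4-58 was lowest, with 2.02, 3.47 and 2.63 in ChIP and 0.760 and 0.474 in input. Elements with the printed bases in common still differed, since Igkv4-70 had 1.67, 3.91 and 3.66 in ChIP, all below Igkv4-68.

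These segments are close copies of each other, so their values are not independent and reads could be placed at the wrong copy. Over the 200 bp around the elements, pairs of members were 65.5 to 98.0% identical without gaps, with a median of 75.5%. The study kept only uniquely mapped reads. Input over 1 kb was 0.585 to 1.27 times the genome mean. In the same stretch 3 of 10 elements with 1 mismatch were bound, against 2.62% of those outside repeats over the genome. Of 2995 measurable tiles 38 passed 4-fold, 7 of them more than 500 bp from a perfect element. Over the genome 0.0481% of measurable tiles passed the bound rule. Outside these segments 243 of 1886 elements were bound (12.9%), and the shares with A on 0, 1 and 2 strands were 7.22%, 14.7% and 22.7%.

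**Figure D4:**
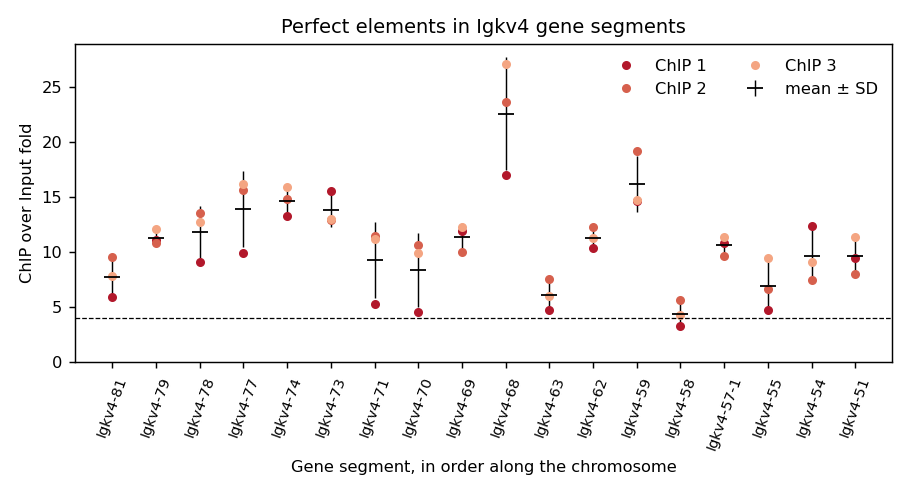
ChIP over input fold (y axis) in each of the 3 ChIP replicates at the 18 perfect elements in Igkv4 gene segments, in their order along the chromosome (x axis), with the mean ± SD of the 3 and the fold of 4 as a dashed line. Only the point of Igkv4-58 in ChIP replicate 1 lies below the line.

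By location, promoter elements (from 1 kb before to 100 bp after a transcript start) were bound in 20.8% of cases (20 of 96, interval 13.9 to 30.0). Coding exons stood at 23.4% (11 of 47), other exons at 6 of 30 elements, introns at 13.6% (108 of 795), intergenic elements at 12.6% (104 of 823), UTRs at 11.1% (3 of 27) and transcript ends at 10.5% (9 of 86). Promoter elements exceeded intergenic ones in mean log2(signal + 0.5) by 0.27, 0.31 and 0.36 in ChIP and by 0.13 and 0.11 in input. The ChIP excess was 0.19 (exact permutation one-sided p = 0.1). Without the Igkv4 segments, 6 of which count as promoter elements, it was 0.10 and the promoter share 15.6% (14 of 90). Within quartiles of GC content, with the Igkv4 segments included, the excess was -0.10, 0.06, 0.44 and 0.01 from lowest to highest. All 18 Igkv4 elements, 6 of them promoter elements, lay in the quartile at 0.44. Of the coding exon elements 1 of 37 was bound without the Igkv4 segments.

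Distance to a protein-coding transcript start followed no single order. The share bound was 16.9% within 1 kb, 11.95% from 1 to 10 kb, 16.5% from 10 to 50 kb and 11.9% beyond 50 kb, with overlapping intervals between all neighbours in that order.

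In promoters of protein-coding transcripts, 11 of 46 measurable elements were bound and 27 unbound. Besides Map2k1, and 3 Igkv4 segments, the bound ones belonged to Map2k7, Spink4, Tnnc1, Hey2, Ebag9, Samd5 and Nrip1, with mean folds from 17.7 to 7.10. The Tnnc1 element also lay in a promoter of Nisch. The element of Nrip1, which encodes the nuclear receptor corepressor RIP140 needed for ovulation, lay 134 bp after a transcript start and within 1 kb before another. Its signal was 5.62, 6.80 and 7.56 in ChIP and 0.969 and 0.908 in input, with a fold of 7.10 ± 1.04 and a limma adjusted p of 0.040. The element of Ebag9, an estrogen-induced gene in breast cells, lay 12 bp before a start, with 6.63, 8.97 and 13.3 in ChIP and 1.31 and 0.959 in input. At both, every ChIP value was over 4 times the higher input.

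The 199 bases around 3 bound elements that lie well before their start, at chr9:64253836-64254034, chr10:30843203-30843401 and chr10:9675415-9675613 on the plus strand of GRCm38, show promoter contexts of a bound element, with half-sites in capitals. Hey2 encodes a transcriptional repressor induced by Notch signalling, and its element had signal of 6.05, 7.11 and 7.65 in ChIP and 0.714 and 0.901 in input:

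Map2k1 promoter: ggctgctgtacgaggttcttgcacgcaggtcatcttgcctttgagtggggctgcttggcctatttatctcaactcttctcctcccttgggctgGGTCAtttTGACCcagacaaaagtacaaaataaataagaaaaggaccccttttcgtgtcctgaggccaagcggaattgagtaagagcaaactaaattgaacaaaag
Hey2 promoter: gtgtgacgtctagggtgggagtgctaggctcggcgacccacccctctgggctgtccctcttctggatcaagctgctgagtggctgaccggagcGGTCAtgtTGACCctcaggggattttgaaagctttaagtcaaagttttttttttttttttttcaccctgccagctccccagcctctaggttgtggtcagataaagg
Samd5 promoter: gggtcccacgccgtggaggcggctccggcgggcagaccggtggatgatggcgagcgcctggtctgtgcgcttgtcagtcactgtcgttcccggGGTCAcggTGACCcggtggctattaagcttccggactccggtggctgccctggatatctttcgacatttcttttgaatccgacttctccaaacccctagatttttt

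The unbound promoter elements with the lowest folds were those of Zscan4d, Magea2, Themis2, Cd300c, Tex45 and Fam184a, with mean folds from 0.479 to 0.713. At Zscan4d and Magea2 both inputs lay below their genome mean, which the fold used in their place and which lowers it. Zscan4d is expressed in 2-cell embryos and embryonic stem cells, and its element had A on both strands. Its signal was 0.179, 0.240 and 0.110 in ChIP and 0.290 and 0.240 in input. The Tex45 element also had A on both strands and lay 60 bp before a transcript start, with 0.464, 0.330 and 0.344 in ChIP and 0.807 and 0.413 in input. At both, no ChIP value stood above the higher input. Of the 6, only the Magea2 element had a ChIP value above both inputs, at 0.350 in replicate 2.

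Counts of perfect elements were small at listed genes with known roles in the ovary or in estrogen response. The rate per gene over all genes was not computed. Of 30 genes that respond to estrogen in other tissues, 7 were the nearest protein-coding gene of 9 measurable elements, of which 3 were bound, at Greb1, Nrip1 and Ebag9, and 3 unbound. Follicle signalling genes held 6 elements, 1 of them bound and 4 unbound. Ovulation genes had 2, with 0 bound and 1 unbound. Over all measurable elements 13.7% were bound, so these small counts set no list apart.

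The Greb1 element, at chr12:16760531-16760543 in intron 1 and 3.30 kb before an internal transcript start, was the strongest of these. Greb1 is a classic early target of estrogen receptors. Signal was 18.7, 24.1 and 26.1 in ChIP and 1.54 and 0.936 in input, with a fold of 18.6 ± 3.09 and a limma adjusted p of 7.9e-10. Its 199 bases, at chr12:16760438-16760636 on the plus strand, are shown with half-sites in capitals:

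Greb1 intron 1: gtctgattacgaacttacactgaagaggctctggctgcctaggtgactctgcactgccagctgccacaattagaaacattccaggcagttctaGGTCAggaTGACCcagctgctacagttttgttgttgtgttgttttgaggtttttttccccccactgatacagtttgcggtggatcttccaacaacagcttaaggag

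Gja1, which encodes connexin 43, the gap junction protein that couples granulosa cells, was nearest to a bound element 207 kb away, with 7.47, 10.2 and 14.1 in ChIP and 1.18 and 0.601 in input. A second Gja1 element, 20.4 kb from its start, was unbound with a fold of 0.915 ± 0.276. Both perfect elements near Fshr, the follicle-stimulating hormone receptor gene, were unbound, with mean folds of 1.20 at 291 kb from its start and 0.886 in its intron 4. The paper reports an ERβ binding site in another intron of Fshr, so these values speak only for the perfect elements.

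Motifs of other factors within 100 bp on either side were searched without mismatch on both strands, and a match is a description of letters, not a bound site. NR5A (TCAAGGTCA or CCAAGGTCA, which contains the 6-base half-site) lay beside 0.840% of measurable elements, and 6 of those 16 were bound (37.5%, interval 18.5 to 61.4). FOXO (TGTTTAC) lay beside 2.42%, and 14 of 46 were bound (30.4%, 19.1 to 44.8). A further ERE with at most 2 mismatches lay beside 10.2%, and 44 of 194 were bound (22.7%, 17.4 to 29.1). AP-1 (TGACTCA or TGAGTCA) lay beside 5.67% with 19.4% bound, and GATA (NNNGATAA with C, G or T first and A or T just before GATAA) beside 15.3% with 16.1% bound. Elements without each of these were bound in 12.7 to 13.5% of cases.

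The shares bound beside the other motifs lay between 10.98 and 15.4%. With SP (GGGCGG, 2.05% of elements) 15.4% were bound, with RUNX (TGTGGTT, 5.62%) 14.0%, with AGGTCA alone as the search (15.2%, NR5A matches included) 12.8% and with TEAD (GGAATG, 12.9%) 10.98%. Elements without each of these 4 were bound in 13.7 to 14.1% of cases. Of the 16 elements beside NR5A, the strongest lay in intron 5 of Zfp423, with 8.96, 11.3 and 12.5 in ChIP and 0.919 and 0.623 in input. Beside FOXO the second strongest after the Csmd1 element lay 15.3 kb from the start of Scd2, a stearoyl-CoA desaturase gene, with 11.4, 13.1 and 16.6 in ChIP and 1.03 and 0.460 in input.

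Compared by library, mean log2(signal + 0.5) beside NR5A was 0.88, 0.88 and 0.91 higher in ChIP and 0.17 and 0.08 higher in input, an excess of 0.76. For FOXO the excess was 0.37, for SP 0.27, for the further ERE 0.26, for AP-1 0.14 and for GATA 0.11. Each of these 6 had an exact permutation one-sided p of 0.1 and a Benjamini-Hochberg value of 0.15 over the 9 motifs, so none passed the correction. In these 6 all ChIP values exceeded both inputs. The single half-site (0.01, p = 0.4), RUNX (-0.03, p = 0.8) and TEAD (-0.06, p = 1) in the same exact test showed no excess. That test looked only for higher ChIP values. For TEAD every ChIP value (-0.081, -0.080 and -0.037) lay below both inputs (-0.008 and -0.010). Within 250 bp all 6 values were lower, at 0.21 for NR5A, 0.14 for FOXO, 0.15 for SP, 0.11 for the further ERE, 0.06 for AP-1 and 0.05 for GATA. At that distance 13.7% of elements were bound both with and without GATA. With NR5A the share was 19.2% (10 of 52, interval 10.8 to 31.9) and with FOXO 21.1% (27 of 128). It was 16.9% with AP-1, 16.5% with the further ERE and 14.0% with SP. Of the Igkv4 elements 13 had a further ERE, and without that family its excess was 0.14 and its share 17.1%.

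Binding went with the spacing of 3 bases. The same half-sites with spacers of 0 to 2 or 4 to 8 bases outside repeats, at least 100 bp from a perfect element, were bound in 39 of 12292 measurable cases (0.317%). The share for single spacers ran from 0.0648 to 1.22%. Mean log2(signal + 0.5) at spacer 3 exceeded the others by 0.49, 0.55 and 0.57 in ChIP and by 0.04 and 0.02 in input, an excess of 0.51 (exact permutation one-sided p = 0.1).

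A spacer of 8 held the highest share among the others, at 1.22% (18 of 1470, interval 0.776 to 1.93). Of these 18 the median fold was 6.29 and the highest 25.1, and 4 overlapped an ERE with 1 mismatch. This spacing was singled out after its values were seen.

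Elements with a single mismatch had a lower share bound. Of 44525 measurable elements outside repeats with exactly 1 mismatch, 1166 were bound (2.62%, interval 2.47 to 2.77). Perfect elements exceeded them by 0.40, 0.45 and 0.48 in ChIP and by 0.04 and 0.03 in input, an excess of 0.41. In absolute number, the bound elements with 1 mismatch outnumbered the 261 perfect ones.

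Perfect elements within repeats were bound in 7.69% of cases (16 of 208, interval 4.79 to 12.1), and those partly in repeats in 8.95% (17 of 190). Elements outside repeats exceeded those within them by 0.19, 0.22 and 0.31 in ChIP and by 0.06 and 0.08 in input, an excess of 0.17. Both comparisons had an exact permutation one-sided p of 0.1.

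**Figure D5:**
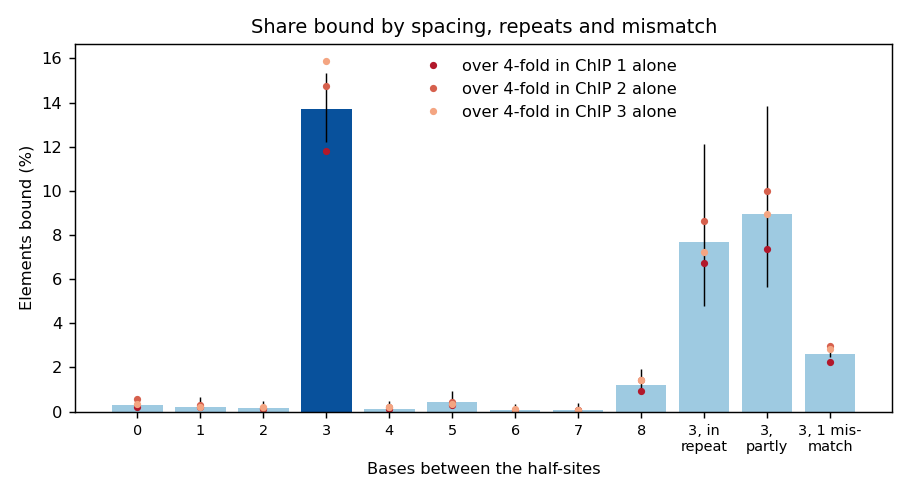
Share of elements bound (y axis, %) for palindromes outside repeats with 0 to 8 bases between the half-sites and for the spacing of 3 in repeats, partly in repeats or with 1 mismatch (x axis). Bars show shares with Wilson 95% intervals and points the share over 4-fold in each ChIP replicate alone. The spacing of 3 stands at 13.7%, and no other spacing passes 1.22%.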

How the data were processed

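The submitters' processing notes name STAR, HOMER and mm10. The authors kept uniquely mapped reads and deposited 1 normalised coverage track (signal) per library, without counts. The deposited signal averaged 0.362 to 0.370 per base in all 5 libraries, so read depth cannot be read from it. The paper reports aligned reads per ChIP sample, but the tracks hold no counts and no interval for reads can be given. Input 1 had 8320529 track segments and the other libraries 4396918 to 4600707. Elements were found in the RefSeq GRCm38.p6 genome and located in GENCODE vM21. Signal was averaged over 200 bp. limma (version 3.58.1, R 4.3.3) was fitted with trend on log2(signal + 0.5) over windows with mean signal of at least 0.1, with Benjamini-Hochberg adjustment, and was tested on simulated data. Classes of elements were compared by exact permutation over libraries (10 arrangements, one-sided). The replicates are pools of different mice per the study's methods. Named elements were the 12 strongest, bound and lowest unbound protein-coding promoter elements, elements nearest to listed genes, unbound copies of the 12 and the elements nearest 4-fold. Elements and lists were chosen with earlier results of these data known. The 2 ERβ knockout samples were not analysed here, and no sequence from chromosome 18 is shown. Some listed genes and the lists that turn on them are not reported here.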

Additional observations from a re-analysis of the deposited data

How the results depend on the processing

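Of 221 recomputed counts and class differences, 207 kept their direction and, for counts, stayed within 1.5 times. Flanking A, spacing, the 1-mismatch and repeat sets, and the NR5A, FOXO, further ERE, AP-1, GATA and SP motifs kept their direction under every alternative tried for them. The negative differences for TEAD and RUNX also kept theirs, in 12 of 12 alternatives each. Within the track-name batches the RUNX difference was 0.03 and -0.07. The excess for AGGTCA was -0.0011 over 400 bp windows and -0.00053 with matches within 250 bp, and ran from -0.011 to 0.024 with 1 library left out. That for a CpG was -0.0061 with a pseudocount of 0.1 and ran from -0.0087 to 0.039 with 1 library left out. The promoter excess was -0.10 in the lowest GC quartile. With a fold over 8, 122 elements were bound, and with 1 library left out 209 to 283. limma called 236 elements with a pseudocount of 0.1, 8 with a pseudocount of 1, 3 without a low-signal filter and 46 to 133 with 1 library left out. The cause of these shifts was not tested.

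With the replicate number as a block limma called 170 elements, among them all 119 of the unblocked fit. ChIP and input shared only 2 numbers, and their deviations correlated at 0.016 and -0.0057 over 920662 tiles. These values gave no sign of pairing by number. They cannot show whether a ChIP and an input came from the same pool of ovaries. Batches from track names, GC quartiles, the spacer CpG and leaving out immunoglobulin segments were chosen after seeing the data. With 3 against 2 libraries and no read counts, weak binding was not separable from background.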
